A study of Mus musculus with 4 samples.

Results

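The miRNAs of miR-486 and of the locus that holds miR-144 and miR-451a, which are known for their abundance in red blood cells and their precursors, were examined in small RNA libraries of mouse brain cortex. Members were all rows of the deposited table whose name is that of miR-144, miR-451a (or another letter in its place) or miR-486, on either arm, and 5 of the 942 mature miRNAs met this rule: miR-451a, miR-144-5p, miR-144-3p, miR-486-5p and miR-486-3p. The cortex came from 4 B6C3 mice aged 9 months, of which 2 were wild type (WT1 and WT2) and 2 were APPswe/PS1deltaE9 transgenic mice (AD mice, APP3 and APP4), a model of Alzheimer's disease. Their transgenes are an amyloid precursor protein gene, part mouse and part human, with the Swedish mutation, and a human presenilin 1 gene without exon 9, which are expressed in brain neurons. By the study's methods, WT1 and APP4 shared their parents, as did WT2 and APP3, so a WT and an AD mouse came from each family. The transgenes are not measured by these small RNA counts, so the genotypes could not be checked here.

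miR-144 and miR-451a are cut from 1 shared transcript that the erythroid factor GATA1 switches on as red blood cells form. miR-451a matures without Dicer, through the slicer activity of Ago2, so it has no partner from the other arm, whereas both arms of miR-144 and of miR-486 can be sequenced. miR-486 lies in the gene of ankyrin 1, a protein of the red cell membrane skeleton, and is also made in striated muscle. Known targets are Ywhaz for miR-451a and the antioxidant factor Nrf2 for miR-144-3p. A dissected brain holds blood in its vessels beside its own cells, and in such bulk tissue fewer cells of a type and less RNA per cell cannot be told apart.

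The mature sequences of the locus are shown because its products come from 1 transcript yet carry unlike seeds, the bases 2 to 8 that pair with targets and that stand in capitals. The last line gives the relative of miR-144-3p with the most similar seed.
miR-451a: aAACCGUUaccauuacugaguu
miR-144-5p: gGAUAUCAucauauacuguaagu
miR-144-3p: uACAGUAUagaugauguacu
miR-101a-3p: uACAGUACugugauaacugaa

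RefSeq (GRCm38.p6) gave a mature sequence for 3 of the 5 members, all of the locus, and for 754 of the 942 miRNAs of the table. None of the 3 seeds occurred at bases 2 to 8 of another mature miRNA in the RefSeq table. Over bases 2 to 7, miR-144-3p shared its seed with miR-101a-3p alone. Its level, in reads per 1000000 miRNA reads (RPM), was 2879 for WT1, 2339 for WT2, 2457 for APP3 and 2764 for APP4, so an miRNA with nearly the same seed was far more abundant than miR-144-3p in each cortex.

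On GRCm38 the hairpin of miR-144 (Mir144) occupies bases 78073005 to 78073070 of chromosome 11, plus strand, and that of miR-451a (Mir451a) follows on the same strand from 78073170 to 78073241, after 99 bases. Both lie outside other annotated genes, apart from Mir451b on the opposite strand of Mir451a. The nearest end of Eral1, on the minus strand, is 134 bases beyond. miR-144-5p takes bases 6 to 28 and miR-144-3p bases 43 to 62 of a hairpin of 66 bases, and miR-451a takes bases 17 to 38 of a hairpin of 72 bases. The hairpin of miR-486 (Mir486) lies on chromosome 8 from 23142555 to 23142682, within Ank1 (22974844 to 23150497) and outside its annotated exons. Another hairpin, Mir3107, lies at the same place on the minus strand (23142573 to 23142662).

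The libraries held between 19048747 (APP4) and 26085776 (WT1) miRNA reads, and 3 reads, the smallest level taken as measurable, were worth 0.115 to 0.157 RPM. All members had more reads than this in each library. Brain miRNAs were abundant, with 69577 to 78013 RPM over miR-124-3p, miR-9-5p, miR-9-3p and miR-128-3p. APP4 stood apart from the other libraries in miRNAs of epithelial cells, with 3437 reads of miR-141-3p against 39 to 67 elsewhere. The ranges and the differences between the genotypes are therefore also given without it.

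For miR-451a, the main product of the locus, WT1 had 91.4 RPM (2384 reads), WT2 had 199.9 RPM (4414 reads), APP3 had 158.6 RPM (3372 reads) and APP4 had 145.9 RPM (2779 reads). WT1 and WT2 were the lowest and the highest of the 4 mice, so the WT mice enclosed both AD mice. The WT mean was 145.7 ± 76.7 RPM and the AD mean 152.2 ± 8.96 RPM (SD, n = 2 each). This miRNA ranked between 166 and 215 among the miRNAs of a library.

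For miR-144-5p, WT1 had 7.78 RPM (203 reads), WT2 had 16.1 RPM (356 reads), APP3 had 12.98 RPM (276 reads) and APP4 had 17.1 RPM (326 reads). WT1 was again the lowest, and the genotypes overlapped, with means of 11.9 ± 5.90 and 15.0 ± 2.93 RPM (SD, n = 2 each) in WT and AD mice.

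For miR-144-3p, whose reads were the fewest of all members, WT1 had 2.57 RPM (67 reads), WT2 had 8.47 RPM (187 reads), APP3 had 7.57 RPM (161 reads) and APP4 had 7.56 RPM, from fewer reads than APP3. Its values in WT2, APP3 and APP4 lay close together, and WT1 lay well below them, so the genotypes overlapped here too. The WT mean was 5.52 ± 4.17 RPM and the AD mean 7.56 ± 0.0077 RPM (SD, n = 2 each).

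miR-486-5p was the most abundant member. WT1 had 3900 RPM of it (101722 reads), WT2 had 4417 RPM (97530 reads), APP3 had 3881 RPM (82534 reads) and APP4 had 3053 RPM (58151 reads). By its own row, without the reads placed on miR-3107-5p (described below), it ranked between 36 and 46 in a library. Both AD mice lay below both WT mice, by a narrow margin between APP3 and WT1. The WT mean was 4158 ± 366 RPM and the AD mean 3467 ± 586 RPM (SD, n = 2 each). On the miRNA read sums it was the only member whose genotypes did not overlap. The same was true of 36% of the 623 miRNAs tested over the mice. The separation of miR-486-5p depended on the scaling. Scaled to clean reads, those left after trimming and filtering, its level was 3253.5 for WT1, 3916.2 for WT2, 3399.0 for APP3 and 2544.8 for APP4. APP3 then lay above WT1 and the genotypes overlapped. With TMM library sizes, described below, they did not, with 3874.2 for APP3 and 4239.0 for WT1.

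For miR-486-3p, the rarer arm, WT1 had 15.7 RPM (410 reads), WT2 had 16.6 RPM (366 reads), APP3 had 16.5 RPM (352 reads) and APP4 had 19.1 RPM (363 reads). Its 95% Poisson intervals of counting error, from 14.2 to 17.3 RPM in WT1 to 17.2 to 21.1 RPM in APP4, overlapped between all libraries. For APP4 against WT1 they barely did, and Fisher's exact test, described below, gave an FDR of 0.0212. Of all members it varied least between mice.

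**Figure D1:**
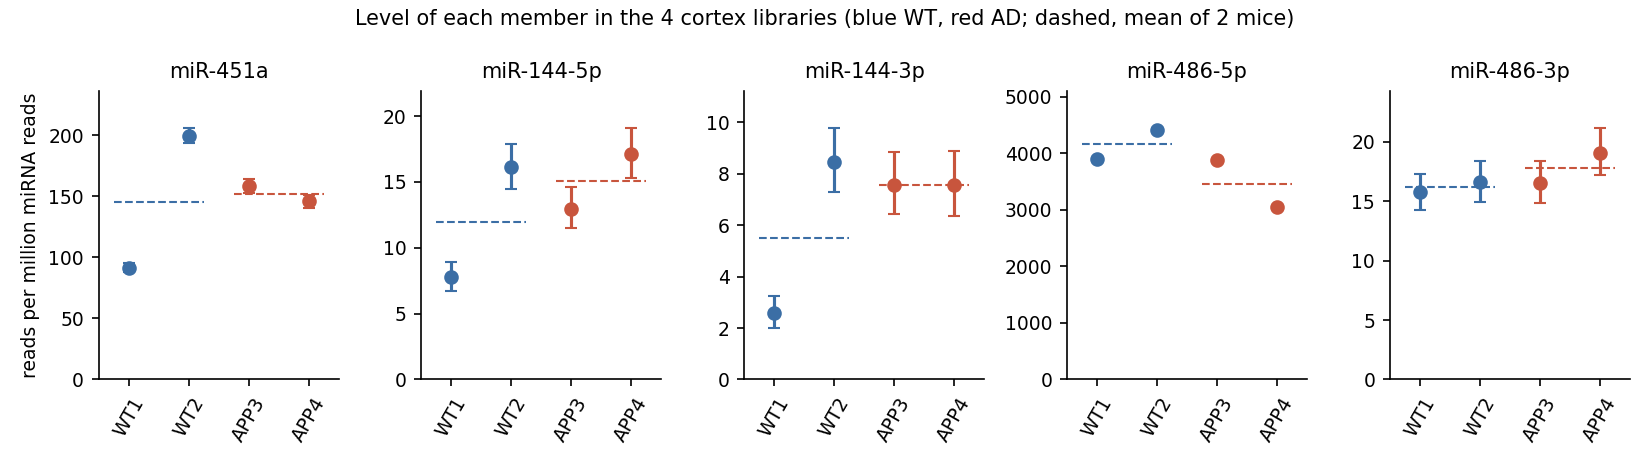
Level of the 5 members in each library, in reads per 1000000 miRNA reads on linear axes from 0. Points are libraries (blue WT, red AD) with 95% Poisson intervals of counting error, which are smaller than the points for miR-486-5p, and dashed lines are means of 2 mice. WT1 is the lowest library for the 3 products of the locus, and APP4 is the lowest for miR-486-5p.

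From the lowest to the highest library the order was WT1, APP4, APP3, WT2 for miR-451a and miR-144-3p, and WT1, APP3, WT2, APP4 for miR-144-5p and miR-486-3p. For miR-486-5p it was APP4, APP3, WT1, WT2. For miR-451a all neighbours in the order differed beyond counting error. For miR-144-5p the neighbours WT2 and APP4 could not be told apart (FDR 0.660), and for miR-144-3p neither could APP4, APP3 and WT2 (FDR 0.529 or more), by Fisher's exact test as described below. For miR-486-5p the same held for APP3 and WT1 (FDR 0.495), and for miR-486-3p for each pair of neighbours (FDR 0.146 or more).

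The highest library exceeded the lowest by 2.19-fold for miR-451a, 2.20-fold for miR-144-5p and 3.298-fold for miR-144-3p, against 1.45-fold for miR-486-5p and 1.21-fold for miR-486-3p. A mean of 5 RPM or more was reached by 424 miRNAs. Among them, the range was wider than that of miR-144-3p for 16, of miR-144-5p for 28 and of miR-451a for 30. It was wider than that of miR-486-5p for 177 and than that of miR-486-3p for 357. The products of the locus thus lay among the miRNAs that varied most between these 4 mice, and those of miR-486 did not. This wide range of the locus rested on WT1, the lowest library for each of its products. Apart from WT1, miR-451a lay between 145.9 and 199.9 RPM, miR-144-5p between 12.98 and 17.1 and miR-144-3p between 7.56 and 8.47. WT1 had 91.4, 7.78 and 2.57 RPM in the same order. Without APP4 the range was 1.14-fold for miR-486-5p and 1.05-fold for miR-486-3p, and it stayed as it was for miR-451a and miR-144-3p, while that of miR-144-5p was 2.07-fold.

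Each AD mouse was first compared with the WT mouse of its family, as in the study, by Fisher's exact test (two-sided) of the reads of an miRNA against all other miRNA reads, with a false discovery rate (FDR) by Benjamini-Hochberg over all miRNAs with a read in either library. Calls needed an FDR under 0.05 and a change of at least 1.5-fold. The test sets 1 library against another and says nothing of the spread between mice. Its errors cover counting only, and they may be too small even for that, because PCR copies of 1 molecule are not independent. Between APP4 and WT1, 3 of the 5 members were called, all higher in APP4 and all from the locus, where 11.6% of all 899 miRNAs were called. The log2 fold change was 0.67 (SE 0.04, FDR 3.27e-62) for miR-451a, 1.14 (SE 0.13, FDR 1.8e-18) for miR-144-5p and 1.55 (SE 0.21, FDR 1.99e-13) for miR-144-3p. miR-486-5p lay on the other side, with a log2 fold change of -0.35 (SE 0.0075, FDR too small to compute) that fell short of the limit of 1.5-fold, and miR-486-3p had 0.28 (SE 0.10, FDR 0.0212). The median log2 fold change of all miRNAs was 0.21.

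This comparison depended on the scaling. TMM, which sets library sizes by the bulk of the miRNAs and not by the read sums, moved each log2 fold change between APP4 and WT1 by -0.25. miR-451a was then no longer called, at 0.42, miR-486-5p was called lower, at -0.61, and the miR-144 arms were still called higher, at 0.88 and 1.30, while 9.45% of all miRNAs were called.

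Between APP3 and WT2, 0 of the 5 members were called, against 6.81% of all 896 miRNAs. The log2 fold change was -0.33 (SE 0.03, FDR 2.16e-23) for miR-451a, -0.31 (SE 0.12, FDR 0.0212) for miR-144-5p and -0.16 (SE 0.15, FDR 0.529) for miR-144-3p. It was -0.19 (SE 0.0068, FDR 7.66e-165) for miR-486-5p and -0.0021 (SE 0.11, FDR 1) for miR-486-3p. The locus was therefore higher in the AD mouse of the first family and was not higher in that of the second, whereas miR-486-5p was below its WT relative in both, by less than 1.5-fold on the read sums.

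The same test was also run between the 2 mice of each genotype, which gives 1 difference between libraries per genotype. These mice came from unlike families, so differences within a genotype and between families cannot be told apart. Between WT2 and WT1, the same 3 members were called, all higher in WT2, against 10.1% of all 879 miRNAs. Their log2 fold changes were 1.13 (SE 0.04, FDR 2.08e-218) for miR-451a, 1.05 (SE 0.13, FDR 1.58e-16) for miR-144-5p and 1.71 (SE 0.20, FDR 2.39e-18) for miR-144-3p. With TMM they were 1.024, 0.94 and 1.61 and all still called, with 8.76% of all miRNAs called. For miR-451a the difference between the WT mice was thus larger than that between APP4 and WT1. For both arms of miR-144 these differences could not be told apart, since APP4 and WT2 themselves gave an FDR of 0.660 for miR-144-5p and 0.533 for miR-144-3p in Fisher's exact test. miR-486-5p had 0.18 (SE 0.0065, FDR 1.43e-169) and miR-486-3p 0.08 (SE 0.10, FDR 0.666).

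Between APP4 and APP3, 0 of the 5 members were called, against 8.05% of all 907 miRNAs. The log2 fold changes were -0.12 (SE 0.04, FDR 0.00402) for miR-451a, 0.40 (SE 0.12, FDR 0.00277) for miR-144-5p, -0.0015 (SE 0.17, FDR 1) for miR-144-3p, -0.35 (SE 0.0078) for miR-486-5p and 0.20 (SE 0.11, FDR 0.153) for miR-486-3p.

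The remaining comparisons set WT and AD mice of unlike families against each other and share these libraries. Between APP3 and WT1 the 3 products of the locus were called higher, with log2 fold changes of 0.79 for miR-451a, 0.74 for miR-144-5p and 1.55 for miR-144-3p, against 11.1% of all miRNAs, and with TMM they were called against 8.33%. Between APP4 and WT2, 0 members were called against 10.6% of all miRNAs. There TMM gave miR-451a -0.60 and miR-486-5p -0.68, both called lower, against 10.5%. On the read sums the locus was thus called in the 3 comparisons that hold WT1 and in none of the others.

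**Figure D2:**
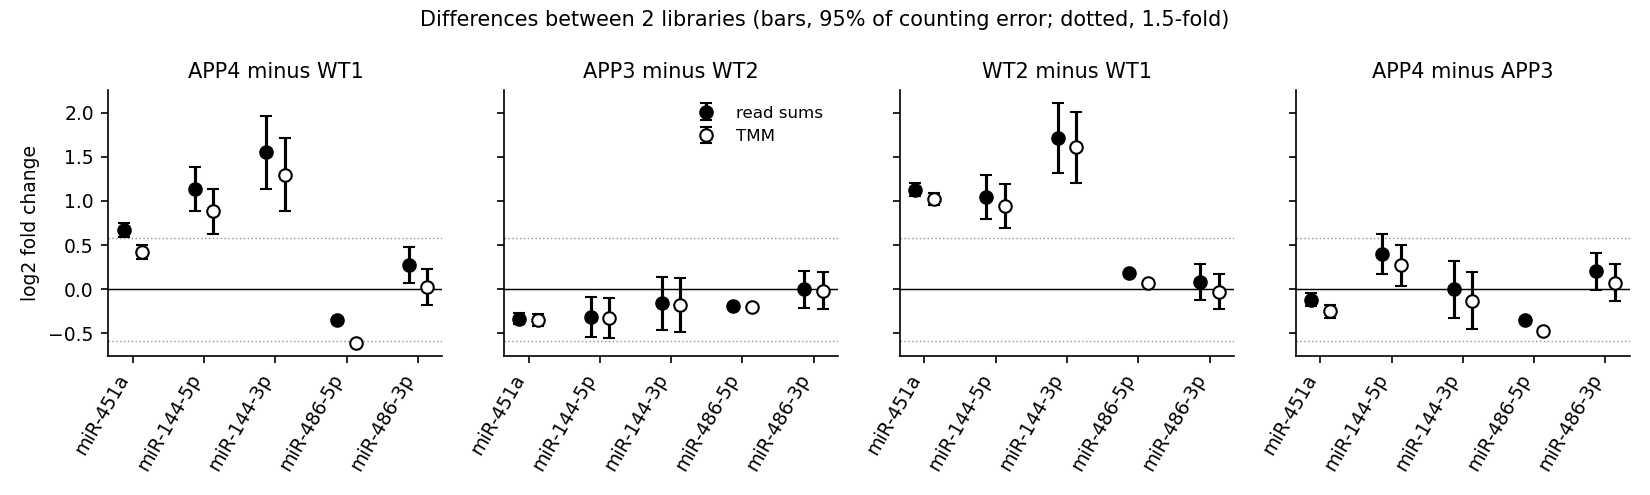
Log2 fold change of each member between 2 libraries, on the read sums (filled) and with TMM library sizes (open). Bars cover 95% of counting error and dotted lines mark 1.5-fold. The products of the locus lie above the upper line in both panels that hold WT1, except miR-451a with TMM between APP4 and WT1, and lie between the lines in the others.

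With the mice as replicates, the quasi-likelihood test of edgeR, Benjamini-Hochberg adjusted, called 0 of the 5 members and 0 of the 623 miRNAs tested (0%), with 36 of the 623 at an unadjusted p under 0.05. DESeq2 also called 0, with 28 unadjusted. The log2 fold change of AD against WT mice was -0.05 (SE 0.34, adjusted p 0.995) for miR-451a, 0.21 (SE 0.32, adjusted p 0.967) for miR-144-5p and 0.35 (SE 0.46, adjusted p 0.958) for miR-144-3p in this edgeR test. It was -0.39 (SE 0.21, adjusted p 0.928) for miR-486-5p and 0.0026 (SE 0.19, adjusted p 1.0) for miR-486-3p. Each of these differences was smaller than 2 of its standard errors.

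The mice that set these values could be read from leaving each out in turn. Without WT1 the log2 fold change was -0.48 for miR-451a, -0.20 for miR-144-5p and -0.25 for miR-144-3p. Without WT2 these were 0.59, 0.79 and 1.41, and the smallest adjusted p of any member was then 0.605 in edgeR's test. The direction of the locus between the genotypes therefore rested on which WT mouse was kept. Without APP3 and without APP4, miR-451a had -0.18 and 0.06, miR-144-5p had 0.34 and 0.06, and miR-144-3p had 0.29 and 0.41. miR-486-5p stayed negative throughout, from -0.64 without APP3 to -0.18 without APP4, and no member had an adjusted p under 0.05. Each of these fits leaves 1 mouse in a genotype, so its error is that of the other genotype and the lone mouse is assumed to vary alike.

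The locus was next set directly against miR-486, as a share of the reads of both, which needs no library size. The share of the locus was 2.53% for WT1 (95% Wilson interval 2.44 to 2.63), 4.82% for WT2 (4.69 to 4.95), 4.39% for APP3 (4.26 to 4.53) and 5.26% for APP4 (5.09 to 5.44). WT1 thus had 38.5 miR-486 reads per read of the locus, against 19.7 for WT2, 21.8 for APP3 and 18.01 for APP4. The 5p arm of miR-3107 appears to share reads with miR-486-5p, as described below. With the miR-3107 reads added, the numbers were 76.6, 39.3, 43.3 and 35.8 in the same order. WT1 stood apart, and the genotypes overlapped, since APP3 lay between the WT mice and APP4 above both.

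This share differed between the libraries in 6 of 6 comparisons by Fisher's exact test, adjusted over the 6. The odds of a locus read were 2.14-fold higher in APP4 than in WT1 (adjusted p 9.24e-178) and 1.95-fold higher in WT2 than in WT1 (adjusted p 5.4e-171). Without WT1 the ratios lay nearer to 1, at 0.908 for APP3 against WT2 (adjusted p 1.29e-05), 1.21 for APP4 against APP3 (adjusted p 2.04e-14) and 1.10 for APP4 against WT2 (adjusted p 7.34e-05). These are differences between libraries in counting error only. Over the mice, with 2 in each genotype, an exact permutation test cannot give a p under 0.333.

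The miRNA miR-23a-3p, which blood laboratories set against miR-451a as a measure of red cell content in blood samples, gave a second reference. Whether this ratio measures red cell content in cortex was not tested. Its level was 584 RPM for WT1, 576 for WT2, 511 for APP3 and 577 for APP4. Of the reads of locus and miR-23a-3p together, the locus held 14.8% for WT1, 28.1% for WT2, 25.9% for APP3 and 22.8% for APP4. Against this reference WT2 and not APP4 had the highest share, so the high share of APP4 beside miR-486 went with its low miR-486-5p.

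Within the locus, the share of miR-451a was 89.8% for WT1 (95% Wilson interval 88.6 to 90.9), 89.0% for WT2, 88.5% for APP3 and 85.5% for APP4 (84.3 to 86.7). It differed in the 3 comparisons with APP4, with adjusted p of 4.48e-06 against WT1, 8.92e-06 against WT2 and 0.000408 against APP3 by Fisher's exact test, and in none of the other 3, where the adjusted p was 0.158 or more. Set against miR-144-3p alone, miR-451a gave another order, with 35.6 reads per miR-144-3p read for WT1 against 23.6 for WT2, 20.9 for APP3 and 19.3 for APP4. There the 3 comparisons with WT1 differed, with adjusted p of 0.00777 against WT2, 0.000783 against APP3 and 0.000234 against APP4 by Fisher's exact test, and the other 3 had an adjusted p of 0.125 or more. Which library stood apart within the locus thus depended on the arm of miR-144 that was counted.

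Among the reads of miR-144, the 3p arm took 24.8% for WT1 (95% Wilson interval 20.0 to 30.3), 34.4% for WT2 (30.6 to 38.5), 36.8% for APP3 (32.5 to 41.5) and 30.6% for APP4 (26.6 to 34.9). It differed in 2 of 6 comparisons, WT2 against WT1 (adjusted p 0.0187) and APP3 against WT1 (adjusted p 0.0055), by Fisher's exact test. The 5p arm held more reads than the 3p arm in each library. In miR-486 the balance was far more uneven. The 3p arm held 0.401% of the reads on the miR-486 rows for WT1, 0.374% for WT2, 0.425% for APP3 and 0.620% for APP4 (0.560 to 0.687).

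**Figure D3:**
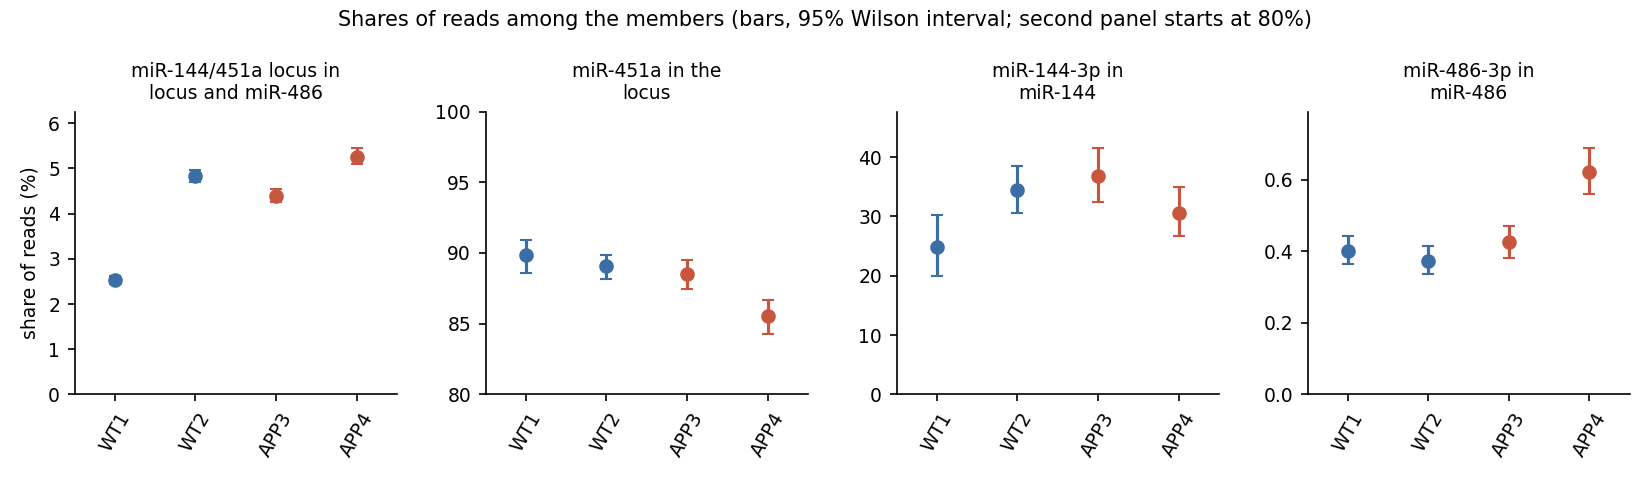
Shares of reads among the members in each library, in percent, with 95% Wilson intervals (blue WT, red AD). The axis of the second panel does not start at 0, as those of the others do. WT1 has the lowest share of the locus beside miR-486, and APP4 has the lowest share of miR-451a within the locus and the highest of miR-486-3p within miR-486.

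The counts of miR-486-5p could not be separated from those of miR-3107-5p, whose hairpin lies opposite that of miR-486. The reads of miR-3107-5p numbered 101124 for WT1, 96928 for WT2, 82042 for APP3 and 57664 for APP4, between 99.2% and 99.4% of the reads of miR-486-5p. The rows differed by 487 to 602 reads. In each library the miRNA read sum closely matches the reads that the study's supplement assigned to mature miRNAs, where each read appears once. Counting shared reads on both rows would have raised the sums by more than any mismatch. Shared reads thus appear to have been divided between both rows. The level of miR-486-5p is then nearer to the sum of the rows, which was 7776 RPM for WT1, 8807 for WT2, 7739 for APP3 and 6080 for APP4. The comparisons hardly depend on this, since the log2 fold change of miR-3107-5p between APP4 and WT1 was -0.36 and the share of the locus against all miR-486 and miR-3107 reads also differed in 6 of 6 comparisons. The 3p rows were not alike, with 53 to 69 reads of miR-3107-3p.

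The members were set beside miRNAs known from blood cells, vessels, muscle and brain. Of 6 other miRNAs that are abundant in red cells, 1 was called between APP4 and WT1, against 11.6% of all miRNAs. This was miR-15a-5p, with a log2 fold change of 0.74. Between APP3 and WT2 and between WT2 and WT1, 0 were called, against 6.81% and 10.1% of all miRNAs. The summed level of the 6 was 9449 RPM for WT1, 10471 for WT2, 11657 for APP3 and 11479 for APP4. miR-16-5p, which many cell types make, gave most of it, with 7624 RPM for WT1, 8844 for WT2, 9468 for APP3 and 9565 for APP4. WT1 was the lowest library in this sum as in the locus, but by a smaller factor, and the members of the list did not move alike. miR-92a-3p stood at 970 RPM in WT1 and 804 RPM in WT2, and miR-25-3p at 654 and 552 RPM, so both were lowest in WT2, where miR-451a was highest.

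Of 5 miRNAs of white cells and platelets, 2 were called higher in APP4 than in WT1, against 11.6% of all miRNAs called. These were miR-142-3p and miR-142-5p, with log2 fold changes of 0.86 and 0.73. miR-142-3p was also called higher in APP3 than in WT2, with 0.998, against 6.81% of all miRNAs called. With TMM miR-142-3p kept this second call. None of the miRNAs of blood cells was then called between APP4 and WT1, against 9.45% of all miRNAs. The summed level of the 5 was 438 RPM for WT1, 559 for WT2, 679 for APP3 and 597 for APP4, and WT1 was again the lowest. miR-150-5p gave most of this sum, with 373 RPM in WT1. miR-142-3p, with 1.88 RPM in WT1 and 1.45 in WT2, and miR-155-5p, with 3.95 and 3.71, were lowest in WT2 instead. The 4 miRNAs of striated muscle, the other tissue known for miR-486, were not called in any of these comparisons. Their sum was 96.8 RPM for WT1, 123.8 for WT2, 108.5 for APP3 and 117.3 for APP4. miR-133a-3p gave most of this sum, with 85.5 RPM in WT1 and 114.5 in WT2. miR-1a-3p, with 9.43 RPM in WT1 and 7.75 in WT2, and miR-133b-3p, with 1.53 and 1.36, were highest in WT1 instead. The muscle sum was below the level of miR-486-5p in each library. Levels of unlike miRNAs do not give the part of muscle in miR-486-5p, which was not tested.

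The 6 miRNAs of the vessel wall summed to 31436 RPM for WT1, 32520 for WT2, 30065 for APP3 and 24449 for APP4, so that APP4 was the lowest, as for miR-486-5p. This sum followed miR-143-3p. miR-126-3p of endothelial cells was highest in APP4, with 1058 RPM against 797 in WT1, 849 in WT2 and 893 in APP3. miR-126-5p had 6568 RPM in APP4 and 6525 in WT1, and miR-145a-5p was lowest in APP3, with 112 RPM. The leading member, miR-143-3p of smooth muscle, fell short of the limit between APP4 and WT1 with a log2 fold change of -0.52, and with TMM it was called lower, at -0.78, as miR-486-5p was. Between WT2 and WT1, miR-145a-3p of this list was called higher, with 0.64, on the read sums but not with TMM. Of the 4 brain miRNAs, miR-124-3p was called higher in WT2 than in WT1, with 0.59, likewise on the read sums alone, and no brain miRNA was called between an AD mouse and the WT mouse of its family. edgeR called 0 members of these lists over the mice.

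The medians of the lists, as log2 fold changes on the read sums, are given beside that of all miRNAs. Between APP4 and WT1 they were 0.29 for red cells, 0.40 for white cells and platelets, -0.11 for the vessel wall, -0.08 for striated muscle and 0.24 for brain, against 0.21 for all miRNAs. Between WT2 and WT1 they were 0.23, 0.34, 0.11, -0.19 and 0.35 in the same order, against 0.14 for all. Between APP3 and WT2 they were 0.25, 0.28, -0.30, -0.06 and -0.18, against 0.05 for all, and there the medians of both blood lists were positive while each product of the locus was negative. The part of blood, vessels or muscle in the levels of the members was not tested.

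**Figure D4:**
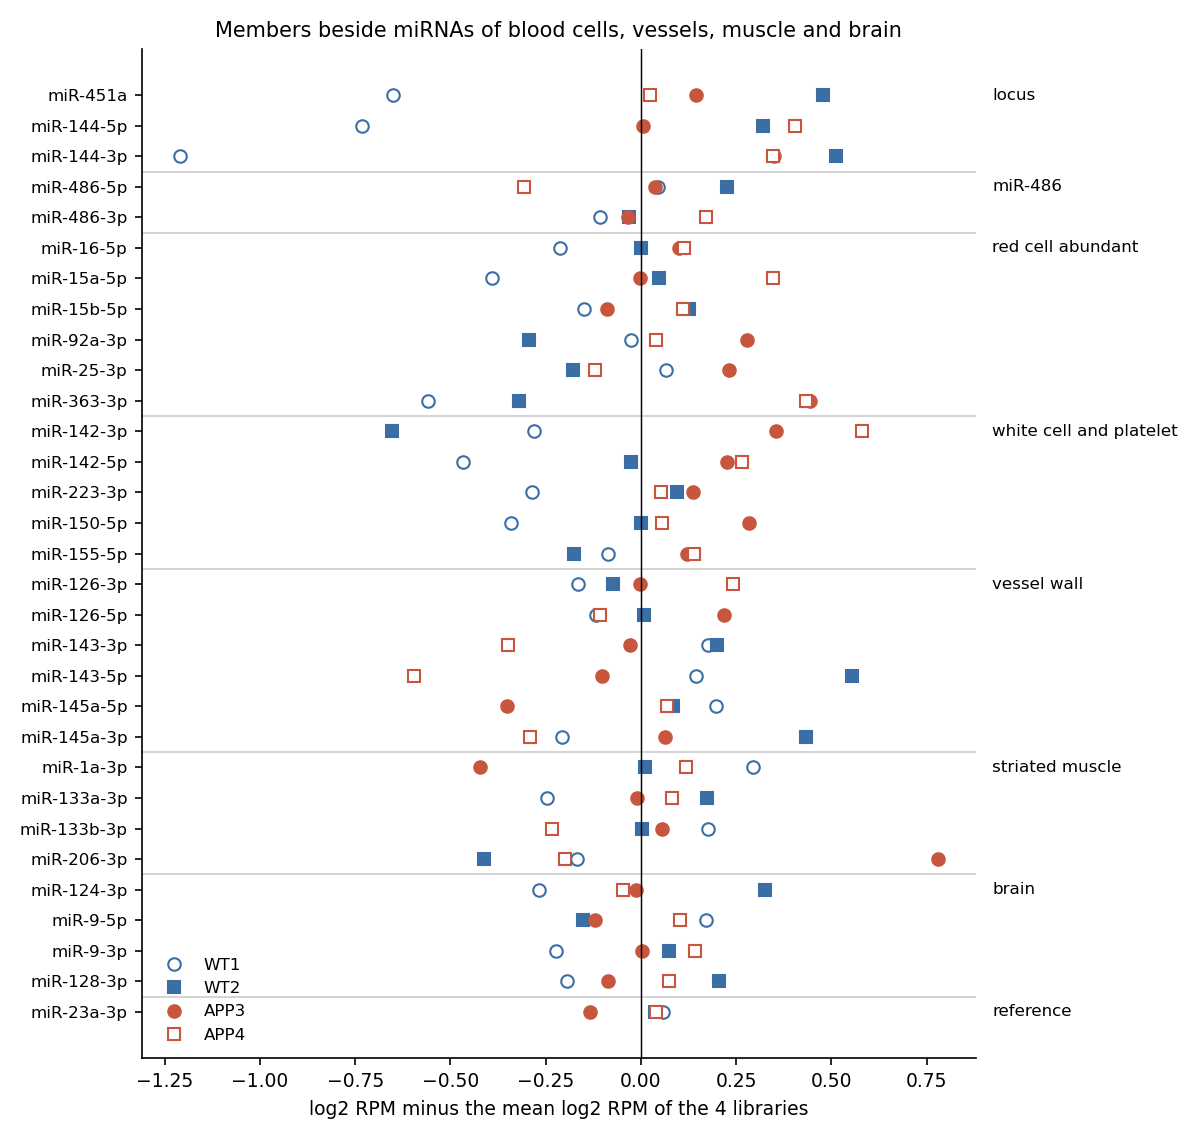
Log2 RPM of the members and of the marker miRNAs in each library, minus the mean log2 RPM of the 4 libraries (open circles WT1, filled squares WT2, filled circles APP3, open squares APP4, blue WT, red AD). The products of the locus spread from WT1 on the left to WT2 or APP4 on the right, more widely than most markers, and APP4 lies to the left for miR-486-5p, miR-143-3p and miR-143-5p.

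The miRNAs with the most similar pattern were sought among the 250 others that averaged 50 RPM or more, ranked by the root mean square difference of log2 RPM over the 4 libraries after centring each miRNA on its mean. Over 4 libraries such likeness is a description only. Nearest to miR-451a were miR-193b-3p (0.17), miR-674-3p (0.18), miR-872-3p (0.20), miR-153-3p (0.20) and miR-187-3p (0.22). miR-193b-3p, for example, stood at 67.4 RPM for WT1, 112 for WT2, 120 for APP3 and 101 for APP4. miR-144-5p lay at 0.22 from miR-451a, which would place it at rank 6, while miR-144-3p lay at 0.34 and miR-486-5p at 0.41, against a median of 0.44.

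Nearest to miR-486-5p was miR-3107-5p (0.0015), followed by miR-204-5p (0.06), miR-143-3p (0.08), miR-666-5p (0.08) and miR-335-3p (0.10). miR-204-5p, an miRNA of the choroid plexus, stood at 3484 RPM for WT1, 4370 for WT2, 3472 for APP3 and 2900 for APP4, and miR-143-3p had 23902, 24328, 20760 and 16628 in the same order. Set among the 250, miR-486-3p would rank 105, miR-451a 219, miR-144-5p 236 and miR-144-3p 245 by nearness to miR-486-5p. The difference used grows with the range of an miRNA, and the locus varied widely while miR-486-5p did not. By nearness to miR-451a, miR-486-5p would rank 105. The ranks of the locus therefore describe its wide range as well as its order across these 4 libraries.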

How the data were processed

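Small RNA of 4 cortex libraries was sequenced on an Illumina instrument. The authors trimmed the reads, kept those of 18 to 35 nucleotides, matched them to miRBase 19 with Bowtie and CLC Genomics Workbench, and deposited the read counts of 942 mature miRNAs without normalization. The study's methods allow at most 2 mismatches, say elsewhere that none was allowed for miRBase, and count variants of changed sequence or length, so the limit behind these counts is not clear. Beside them they deposited the same counts as RPM of clean reads, under the name TPM, which were used here only to recover the clean reads. The submitters' processing notes name CASAVA 1.8 and mm9 and the study's methods GRCm38. The count table holds no coordinates, and hairpin positions are those of GENCODE and RefSeq on GRCm38.

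Counts were scaled to the miRNA read sum of each library (WT1 26085776, WT2 22078713, APP3 21266937, APP4 19048747), so that 3 reads were worth at most 0.157 RPM. Fisher's exact tests used scipy 1.17.1 with 0.5 read added for fold changes. The genotypes were compared in R 4.3.3 by the quasi-likelihood test of edgeR 4.0.16 on the counts of all miRNAs, after filterByExpr and TMM, and DESeq2 1.42.0 was an alternative. The Fisher and edgeR tests, but not DESeq2, were checked on simulated data. The data simulated for Fisher's test held counting error only, without a spread between mice. Families were taken from the study's methods. The deviations of mice of 1 family from their genotype means correlated with r = 0.235 over 252 miRNAs, and the family as a block was an alternative. The p-values of edgeR rest on the spread between the 2 mice of a genotype, with information on this spread shared among all miRNAs tested. The alternatives were library sizes by TMM or clean reads, a minimum of 10 RPM, counts scaled to 1000000 reads, 5 reads added, no TMM, no filter, rows of a locus summed, other references for the shares and each mouse left out in turn. Named miRNAs were all rows of the rule, marker lists, miR-3107 and the 5 miRNAs most like miR-451a and miR-486-5p. miR-141-3p and miR-101a-3p were named after their values were seen. The members and lists were chosen with earlier results of these data known. Sequences of miR-486 and miR-3107 are not given here.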

Additional observations from a re-analysis of the deposited data

Results flagged for a closer look

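For 4 members the log2 fold change between an AD mouse and its WT relative had opposite signs in the families. miR-451a had a log2 fold change of 0.67 for APP4 over WT1 and -0.33 for APP3 over WT2. In the same order miR-144-5p had 1.14 and -0.31, miR-144-3p 1.55 and -0.16, and miR-486-3p 0.28 and -0.0021. The difference between the families was not tested, because each family has 1 mouse of each genotype. For miR-144-3p and miR-486-3p the second value is within counting error of 0. miR-486-5p was lower in the AD mouse of both families.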

How the results depend on the processing

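Counts scaled to 1000000 reads per library left 1 member called between APP4 and WT1 and 1 between WT2 and WT1, in place of 3. miR-144 has few reads at that depth. Calls fell among all miRNAs too, to 32 of 623 between APP4 and WT1, in place of 104 of 899. Between WT2 and WT1 they fell to 21 of 615, in place of 89 of 879. With 5 reads added the log2 fold change of miR-144-3p between APP4 and APP3 was 0.0030 in place of -0.0015, and with TMM that of miR-486-3p between WT2 and WT1 was -0.028. TMM also split the called miRNAs between APP4 and WT1 into 39 higher and 46 lower, in place of 87 and 17, and those between WT2 and WT1 into 40 and 37, in place of 67 and 22. Leaving miR-3107-5p out of the read sums, an alternative added after the data were seen, changed no number of called members. In edgeR the difference of miR-451a between the genotypes was -0.05, 0.034 with the family as a block and 0.064 without TMM. Leaving out 1 mouse gave -0.48 to 0.59 for miR-451a, -0.20 to 0.79 for miR-144-5p, -0.25 to 1.41 for miR-144-3p and -0.046 to 0.038 for miR-486-3p. The smallest adjusted p of a member was 0.712 with the block and lay between 0.605 and 0.997 over the alternatives. Among all miRNAs edgeR called 2 with the block, 3 without WT1, 21 without APP3 and 5 without APP4. The block changed no call of a member. The common variation between mice of a genotype, estimated by edgeR over all miRNAs tested, was 24.0%. Among the members, miR-144-3p in WT1 had the fewest reads, 67, so depth limits its values most.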
